A study of Mus musculus with 145 samples.

Results

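SSC2 is 1 of 4 clusters of spermatogonial stem cells (SSCs) in the authors' annotation of single cells under reprogramming, and it held 499 of the 4464 annotated cells. Its members were taken as the cells that the annotation assigns to SSC2, with no further selection, and the annotation places 818 cells in SSC1, 494 in SSC3 and 454 in SSC4. Transcriptomes of single cells came from a modified STRT-seq in plates, where a random tag on each cDNA molecule, the unique molecular identifier (UMI), lets copies made by PCR count as 1. SSCs from neonatal males of a C57BL/6 mother and a DBA father (DBA/2 in the study's methods), carrying an *Oct4*-EGFP reporter, were kept in SSC medium with EGF, bFGF, GDNF and LIF for 0 to 27 days without chemical treatment, and this original condition gave 46 libraries from 10 days in batches B1 and B2. The 499 cells lay in 34 of these libraries and in no library of a pluripotent line. Cells had been picked by hand from SSC-like and pluripotent-like colonies, and shares of cells therefore hold for what was picked, not for the culture.

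SSCs are the self-renewing germ cells of the testis. Among the growth factors of their medium, GDNF signals through the receptor RET with its coreceptor GFRA1 and sustains regulators of self-renewal such as *Etv5* and *Bcl6b*, whereas FGF and EGF act through ERK, whose activity is read from feedback genes such as *Dusp6*, *Spry4* and *Il17rd*. A dividing cell copies its DNA with genes of the G1/S and replication programme (*Mcm2* to *Mcm7*, *Pcna*, *Rrm2*) and separates its chromosomes with those of the G2/M programme (*Plk1*, *Aurka*, *Ccnb1*, the kinesins). Retinoic acid turns on *Stra8* when spermatogonia leave the undifferentiated state.

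The cells carried the markers of the label. With the cells of each library added up wherever a library held at least 5 of the cluster, the level in SSC2 over 23 libraries was 621 at the lowest, 798 at the median and 944 at the highest TMM-scaled CPM (the count scaled to a common library total) for *Dazl*, an RNA-binding protein of germ cells. *Ddx4*, a germ cell RNA helicase, had a median of 433 CPM, and *Zbtb16*, a transcription factor needed for SSC maintenance, one of 114 CPM. When every cell was thinned to 30000 UMIs, *Dazl* and *Ddx4* had a UMI in 100% of the 499 SSC2 cells and *Zbtb16* in 80.4% (97.8% without thinning). In the ESC library the thinned shares were 41.9% for *Dazl*, 4.65% for *Ddx4* and 0% for *Zbtb16*, so *Dazl* was not absent there. These markers did not single out SSC2. *Dazl* and *Ddx4* also had a UMI in 100% of thinned cells of the clusters Fibroblast 1, Meiotic 2 and Neural 1. *Zbtb16* had one in 87.2%, 84.7% and 83.4% of them. The median SSC2 cell had 286300 UMIs, 8576 genes and 0.869% mitochondrial UMIs. In the same libraries SSC2 cells were deeper than SSC1 cells in 21 of 21 libraries (median ratio 1.70), and shallower than SSC3 cells in all but 1 of 12 libraries (0.814).

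Markers of fibroblasts, testis somatic cells, neural cells, blood and endothelium were low. The pluripotency and meiosis lists were higher, and no list separated early from late libraries. The 18 genes of the fibroblast and feeder list summed to 67.7 to 256 CPM in libraries of days 0 to 18 and to 93.5 to 187 CPM in those of days 20 to 27. The 13 genes of testis somatic cells summed to 6.99 to 62.0 and 7.91 to 40.7 CPM, the 11 neural genes to 33.9 to 139 and 46.9 to 92.9 CPM, and the 9 blood and endothelial genes to 8.20 to 47.0 and 21.2 to 65.1 CPM. *Insl3*, the defining hormone of Leydig cells, had no UMI in SSC2. The 12 pluripotency genes summed to 159 to 482 and 121 to 297 CPM, with *Dppa3* highest at a median of 99.1 CPM and *Nanog* at 0.40 CPM. The 26 meiosis genes were not low, with sums of 3363 to 4271 and 3240 to 4170 CPM, and 23 of them had a mean of at least 5 CPM. The highest was the cohesin gene *Smc3* with a median of 578 CPM, which other dividing cells also use.

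The clusters were defined on these same transcriptomes, so the differences between them are a description and carry no p-value. Each difference was taken between the sums of the 2 clusters within 1 library, as log2(CPM + 1) of SSC2 minus the other cluster, and averaged over the libraries with at least 5 cells of both. A gene is called higher or lower where the mean difference was at least 0.721 on the log2 scale (0.5 natural-log units) with 1 sign in every library. The 3 comparisons use the same SSC2 sums and different numbers of libraries, and a rule on every library is stricter where libraries are more, so their counts are not to be set against each other.

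SSC2 carried more RNA of mitotic genes than SSC1 and SSC4, and about as much as SSC3. Of the 42 G2/M and mitosis genes, 23 were higher than in SSC1, against 0.517% of the 10825 genes measured, and the list had a median difference of 1.07 against 0.03 over all genes. Against SSC4, 34 of the 42 were higher, against 1.51% of 10954 genes, with a median of 1.12. Against SSC3 none was called in either direction and the median was 0.08. Both other comparisons had 42 of 42 members above 0, and SSC3 had 31. The clusters come from these same transcriptomes, so the counts are a description.

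The summed level of the G2/M genes showed the same in each library. It was 4940, 5943 and 7583 CPM in SSC1 (lowest, median and highest of 28 libraries), 8235, 10626 and 12567 CPM in SSC2 (23 libraries), 7362, 8932 and 11038 CPM in SSC3 (18 libraries) and 3987, 4379 and 6400 CPM in SSC4 (16 libraries). SSC2 did not overlap with SSC1 or SSC4 and overlapped widely with SSC3. Within libraries the log2 ratio of the sums was 0.86 (SD 0.195, n = 21) against SSC1, 0.12 (SD 0.128, n = 12) against SSC3 and 1.10 (SD 0.153, n = 10) against SSC4. The ratio to SSC3 ran from -0.08 to 0.28, so its sign was not the same in all libraries.

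**Figure D1:**
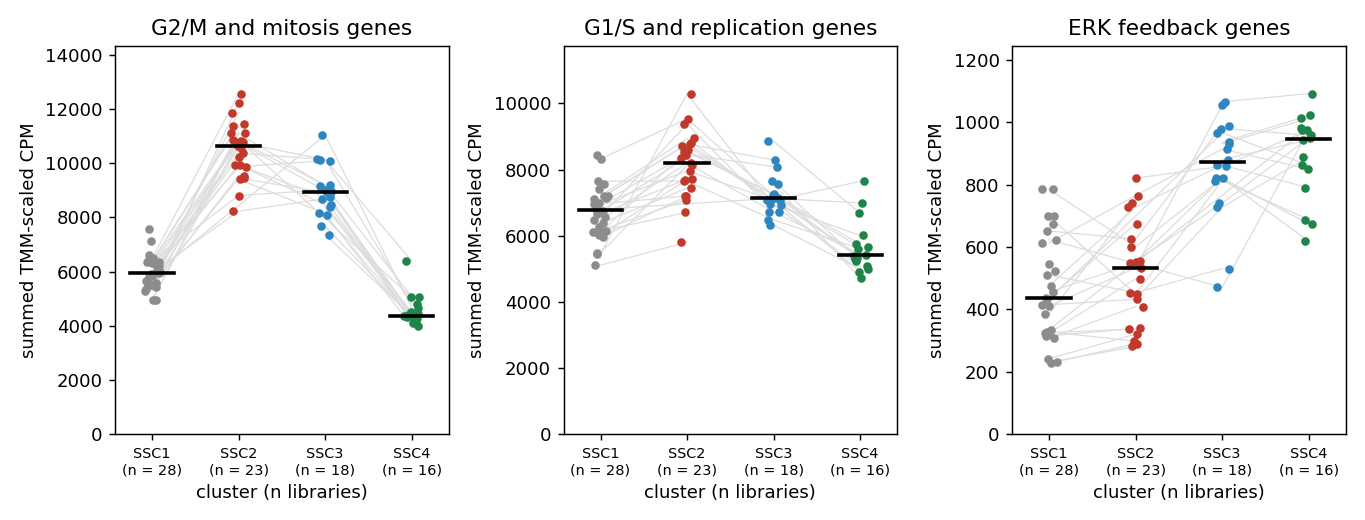
Summed levels of the 42 G2/M and mitosis genes, the 36 G1/S and replication genes and the 18 ERK feedback genes, in TMM-scaled CPM on linear axes from 0. Each point is the sum of one cluster in one library with at least 5 of its cells, grey lines join sums of the same library and black bars are medians. The SSC2 points of the G2/M panel, 8235 to 12567 CPM, lie above every SSC1 and SSC4 point.

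*Mki67*, a protein that coats mitotic chromosomes and is used as a mark of proliferation, led the genes higher than in SSC1 and those higher than in SSC4. Its level was 6.73 at the lowest, 32 at the median and 66.1 CPM at the highest in SSC1, 120, 162 and 233 CPM in SSC2, 71.3, 128 and 210 CPM in SSC3, and 4.23, 13.6 and 33 CPM in SSC4. No SSC1 or SSC4 library reached the lowest SSC2 library. The mean difference was 2.42 (SD 0.78, 21 of 21 libraries) against SSC1, 3.49 (SD 0.65, 10 of 10) against SSC4 and 0.15 (SD 0.38, 8 of 12) against SSC3. In cells thinned to 30000 UMIs, *Mki67* was found in 87.2% of SSC2 cells (exact binomial 95% interval 83.9% to 90%), 84.0% of SSC3, 33.9% of SSC1 and 22.4% of SSC4 cells. The unthinned shares were 98.8%, 97.8%, 64.5% and 69.2%, and the thinning left out 102 SSC1 and 3 SSC4 cells as too shallow. Intervals cover counting error only.

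The mitotic kinase *Plk1* was 54.2 at the lowest, 150 at the median and 237 CPM at the highest in SSC2 and 17.4, 32.5 and 53.3 CPM in SSC1 of the same 21 libraries, a mean difference of 2.14 (SD 0.59). The spindle protein *Nusap1* differed by 2.26 (SD 0.66) from SSC1 and by 2.23 (SD 0.53) from SSC4. Neither was called against SSC3, where *Plk1* differed by -0.25 and *Nusap1* by 0.07. The spindle assembly factor *Tpx2* (1.90), the kinase *Aurka* (1.81) and the kinesins *Kif23* (1.70) and *Kif11* (1.69) followed against SSC1. The DNA glycosylase *Neil3* (2.06), the E2F family repressor *E2f8* (1.98) and the spindle protein *Ckap2l* (1.98) completed the 6 largest and are not on the list.

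Not every G2/M gene moved as far. The cyclin gene *Ccnb1* was 333, 448 and 591 CPM in SSC2 against 135, 257 and 373 CPM in SSC1, a difference of 0.85 (SD 0.32) in 21 of 21 libraries. The most abundant members were closer still, with *Hmgb2*, a chromatin protein at 812 CPM, at 0.35 and *Cenpf*, a kinetochore protein at 681 CPM, at 0.39. The smallest differences on the list against SSC1 were those of *Ckap5* (0.25) and *Ckap2* (0.30), both microtubule-binding, and neither was called in any comparison.

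The promoters of these genes are shown because many hold the same short letters. The CHR, whose core is TTTGAA, and the CCAAT box are elements known from promoters of genes expressed in G2 and mitosis. In RefSeq promoters (GRCm38.p6, 250 bases before to 50 after the start, both strands searched, the motifs do not share bases), TTTGAA was present in 17.9% of all 32851 promoters, CCAAT in 37.4% and both in 6.95%. Of the 42 G2/M genes 34 had a promoter in the table, and 25 of them (73.5%) held TTTGAA, 26 (76.5%) CCAAT and 21 (61.8%) both. Of 25 promoters of G1/S genes 4 (16%) held TTTGAA and 15 (60%) CCAAT. Among 43 promoters of the genes higher than in SSC1, many of them on the G2/M list, 29 (67.4%) held TTTGAA, and among 43 of the genes lower than in SSC3 this was 3 (6.98%). A match of letters is a description and not a site shown to be used. The 150 bases before the start are given below for the 6 G2/M genes with the largest differences from SSC1 among those with a promoter in the table, 5′ to 3′ on the strand of the gene, with TTTGAA and CCAAT in capitals, also where their reverse complement reads on the printed strand.
*Mki67*, chr7:135716380-135716529, minus strand: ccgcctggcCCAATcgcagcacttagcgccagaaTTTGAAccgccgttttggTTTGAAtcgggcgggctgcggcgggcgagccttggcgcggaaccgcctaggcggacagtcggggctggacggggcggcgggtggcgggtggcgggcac
*Plk1*, chr7:122159285-122159434, plus strand: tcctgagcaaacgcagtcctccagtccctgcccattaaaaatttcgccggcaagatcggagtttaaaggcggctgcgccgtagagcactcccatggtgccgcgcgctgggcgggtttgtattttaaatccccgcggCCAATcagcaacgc
*Aurka*, chr2:172370571-172370720, minus strand: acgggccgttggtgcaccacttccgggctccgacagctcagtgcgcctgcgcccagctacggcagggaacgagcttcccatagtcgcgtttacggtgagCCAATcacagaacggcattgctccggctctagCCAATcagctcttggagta
*Kif23*, chr9:61946800-61946949, minus strand: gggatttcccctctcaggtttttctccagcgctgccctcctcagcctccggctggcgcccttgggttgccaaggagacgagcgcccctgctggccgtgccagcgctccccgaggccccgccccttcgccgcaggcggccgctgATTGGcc
*Kif11*, chr19:37376232-37376381, plus strand: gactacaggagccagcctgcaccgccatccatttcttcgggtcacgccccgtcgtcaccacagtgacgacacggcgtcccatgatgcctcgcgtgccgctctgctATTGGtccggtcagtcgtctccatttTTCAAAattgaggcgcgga
*Nusap1*, chr2:119618148-119618297, plus strand: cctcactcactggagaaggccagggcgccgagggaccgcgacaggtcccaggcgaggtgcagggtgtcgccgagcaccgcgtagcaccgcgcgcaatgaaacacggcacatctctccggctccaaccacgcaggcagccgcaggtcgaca
*Mki67* held 2 copies of TTTGAA and 1 CCAAT in this stretch, *Kif11* 1 of each, *Aurka* 2 CCAAT and *Plk1* and *Kif23* 1 CCAAT each. *Nusap1*, with the second largest difference from SSC1, held neither.

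Genes of G1/S and replication lay higher in SSC2 too, by less than the G2/M genes against SSC1 and SSC4 and by more against SSC3. Of 36 members, 2 were called higher than in SSC1 (0.517% of all genes) and 14 higher than in SSC4 (1.51%), with medians of 0.45 and 0.73, and 0 were called against SSC3, where the median was 0.30. The members above 0 were 35, 36 and 33 of 36 in that order. *Rrm2*, a subunit of ribonucleotide reductase, was 77.3, 134 and 249 CPM in SSC2 and 17.1, 55.8 and 112 CPM in SSC1, a difference of 1.31 (SD 0.69, 21 of 21). *Hells*, a chromatin remodeller at 808 CPM, differed by -0.26. *Cdc6*, which loads the replicative helicase, was 1.42 higher than in SSC4 (SD 1.41). The summed G1/S level had medians of 6770 CPM in SSC1, 8194 in SSC2, 7129 in SSC3 and 5407 in SSC4, and its ranges overlapped between SSC2 and each of the others. Within libraries the log2 ratio of the G1/S sums was above 0 throughout, from 0.00045 to 0.918 against SSC1 (21 libraries), 0.0633 to 0.574 against SSC3 (12) and 0.0597 to 1.02 against SSC4 (10).

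Per cell, the G2/M genes took a median of 1.04% of the UMIs in SSC2, 0.900% in SSC3, 0.543% in SSC1 and 0.443% in SSC4. The lowest decile of SSC2 cells lay at or below 0.782%, and the highest decile of SSC1 cells at or above 0.858%, so the clusters overlapped cell by cell. Among the 499 SSC2 cells the G2/M and G1/S shares were inversely related (Pearson r = -0.53, Spearman rho = -0.57, across cells that share libraries, both taken from the same total).

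**Figure D2:**
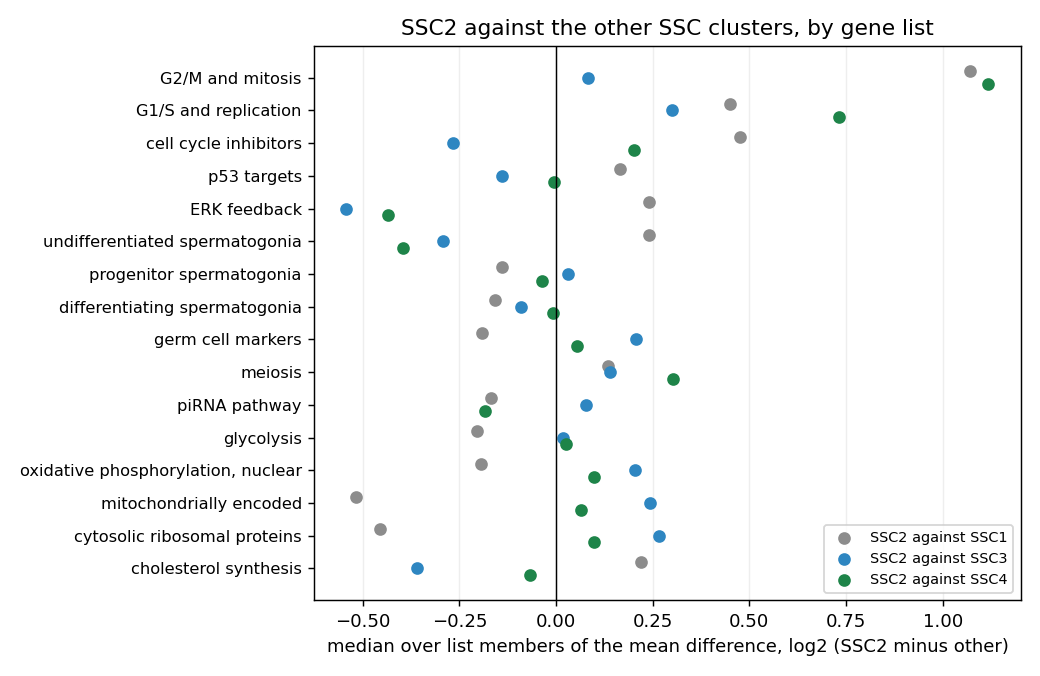
Median over the measured members of each gene list of the mean within-library difference, SSC2 minus the cluster named by the colour, on the log2 scale. G2/M and mitosis lies at 1.07 against SSC1, 1.12 against SSC4 and 0.08 against SSC3, and ERK feedback at 0.24, -0.44 and -0.54.

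Genes of growth factor response lay mostly lower in SSC2 than in SSC3 and SSC4, with few calls. Of the ERK feedback genes that passed the filter on low levels, 2 of 17 were above 0 against SSC3 (median -0.54) and 1 of 16 against SSC4 (median -0.44), and against SSC1 14 of 15 were above 0 (median 0.24). The call was met by 1 gene, *Il17rd*, an inhibitor of FGF signalling, which was lower by -0.81 (SD 0.43) than in SSC3 and by -0.83 (SD 0.63) than in SSC4. The genes called lower were 0.558% of 10932 in the former and 1.2% in the latter comparison, so the call of 1 member is a small part of the list and the medians rest on differences without the same sign in every library. In batch B1 alone no gene of the list was called lower than in SSC3 or SSC4, and in cells of 150000 to 400000 UMIs none was lower than in SSC3. The phosphatase *Dusp6* differed by -0.54 and -0.75, the inhibitor *Spry4* by -1.02 and -1.30 and the transcription factor *Etv5* by -0.53 and -0.66. The summed level of the 18 genes was 281, 533 and 821 CPM in SSC2 and 471, 872 and 1065 CPM in SSC3, which overlap. The log2 ratio of these sums within libraries ran from -0.98 to 0.22 against SSC3 and from -1.04 to -0.12 against SSC4.

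Genes of undifferentiated spermatogonia lay in the same direction, with medians of 0.24 against SSC1, -0.29 against SSC3 and -0.40 against SSC4. None of 21 measured members was called against SSC1, 1 of 23 was lower than in SSC3 (0.558% of all genes) and 2 of 23 were lower than in SSC4 (1.2%). In cells of 150000 to 400000 UMIs the median against SSC1 was 0.05, with 11 of 20 members above 0, and against SSC4 1 member was called higher (1.82% of all genes) and 1 lower (1.41%). *Tspan8*, a surface tetraspanin, differed by -1.54 from SSC3 (SD 0.49, lower in 12 of 12 libraries). *Egr2*, a transcription factor induced by growth factors, differed by -1.74 from SSC4. *Junb*, another immediate early gene, differed by -1.20 from SSC3 and -1.47 from SSC4. *Gfra1* (-0.53 and -0.70), *Ret* (-0.12 and -0.40) and *Bcl6b* (-0.48 and -0.74) were not called.

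*T*, the gene of the transcription factor brachyury, showed the largest difference from SSC4. In the 10 shared libraries it was 0.40, 1.49 and 5.87 CPM in SSC2 and 8.36, 28 and 60.0 CPM in SSC4, a difference of -3.56 (SD 0.83). The groups did not overlap. Against SSC3 it differed by -2.96 but not in every library. After thinning, *T* had a UMI in 4.41% of SSC2, 2.93% of SSC1, 25.7% of SSC3 and 36.6% of SSC4 cells. In other clusters the share was 1.11% in Neural 1, 1.39% in Meiotic 2, 3.1% in RPG3 and 15.1% in Fibroblast 1. In the germline-derived pluripotent lines it was 6.49% and in the ESC library 27.9%.

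*Pcsk2*, a convertase of prohormones, led the genes lower than in SSC3. In the 12 shared libraries it was 0, 4.75 and 16.2 CPM in SSC2 and 5.96, 26.4 and 65.4 CPM in SSC3, a difference of -2.41 (SD 1.05), and from SSC4 it differed by -2.51. The ubiquitin ligase gene *Rnf125* (-2.33), the Cdc42 effector gene *Cdc42ep3* (-2.28), the homeobox gene *Msx1* (-2.25), the kinase gene *Nim1k* (-2.14) and *Cplx2* (-2.10), a regulator of vesicle fusion, followed. *Cdkn1a*, the CDK inhibitor p21, was 39.2, 102 and 163 CPM in SSC2 and 152, 180 and 364 CPM in SSC3, a difference of -0.98 (SD 0.41, lower in 12 of 12). It differed from SSC1 by 1.2 (18 of 21) and from SSC4 by 0.16, without a call. Against SSC4, *Cldn11*, a tight junction protein (-3.05), *RP23.276E14.1* (-2.69), *Crmp1*, a cytoskeletal protein of neurons (-2.66), and *Cdc42ep3* (-2.39) were also among the 6 lowest. *Cldn11* and *Sox9* (-2.37) stand on the list of testis somatic cells. Their levels in SSC2 were at a median of 0.49 and 2.44 CPM.

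**Figure D3:**
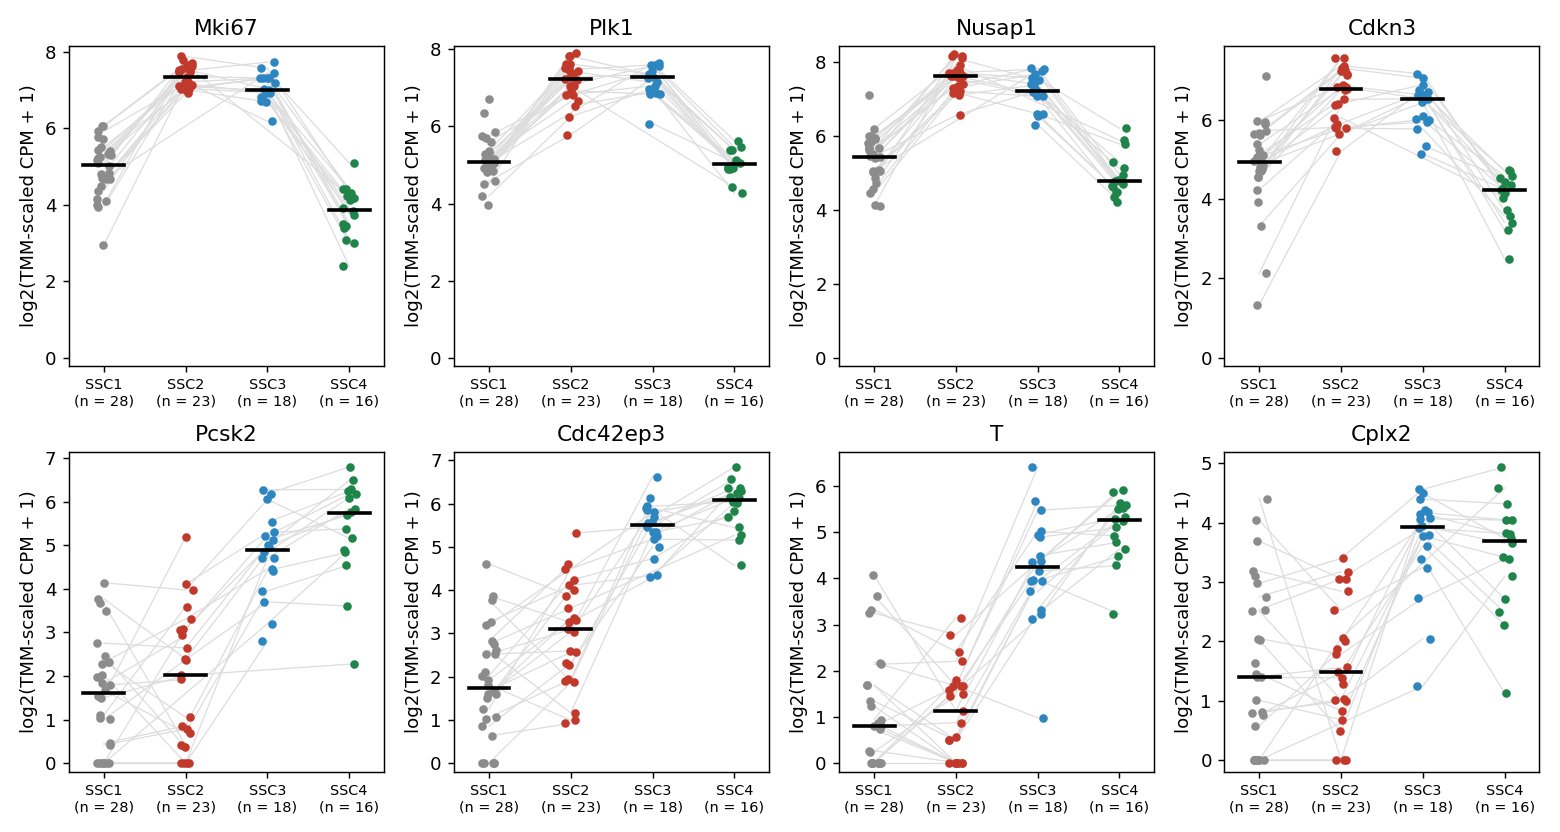
Levels of 8 genes in the 4 SSC clusters, log2(TMM-scaled CPM + 1). Each point is the sum of one cluster in one library with at least 5 of its cells, grey lines join the same library and black bars are medians. For *Mki67*, *Plk1*, *Nusap1* and *Cdkn3* the SSC2 and SSC3 bars lie above those of SSC1 and SSC4. For *Pcsk2*, *Cdc42ep3*, *T* and *Cplx2* SSC1 and SSC2 lie below SSC3 and SSC4.

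Few genes were lower than in SSC1 (0.0277% of genes) or higher than in SSC3 (0.0183%). The former were *Bcan*, a matrix proteoglycan (-1.63), *Msantd4* (-1.18) and *Rspo4*, an enhancer of Wnt signalling (-0.91). The latter were *Igfbp6*, a binding protein of insulin-like growth factors (0.79, 94.7, 128 and 207 CPM in SSC2 against 14.8, 98.0 and 119 CPM in SSC3), and *Nfs1*, the cysteine desulfurase of iron-sulfur cluster assembly (0.73). In cells of 150000 to 400000 UMIs, 37 genes were lower than in SSC1 (0.342%, 12 libraries) and 8 higher than in SSC3 (0.0737%, 9 libraries). A sign in every library is easier to meet with fewer libraries. Besides *Mki67* and *Nusap1*, the 6 highest over SSC4 were the linker histone gene *Hist1h1e* (2.55), *Pclaf* (given as 2810417H13Rik in the data), which binds PCNA (2.38), the phosphatase gene *Cdkn3* (2.36) and *Prr11* (2.2).

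No gene set SSC2 apart from all 3 other clusters in every library. Of 10494 genes measured in all 3 comparisons, those furthest above all others on average were *Hist1h1b*, *Ccng2*, *B230312C02Rik*, *H1fx*, *Zbtb40* and *Ccnb3*, and those furthest below were *Cep170b*, *Mlana*, *Pml*, *Cpne8*, *Efcab1* and *Pnmal1*. In cells of 150000 to 400000 UMIs the differences of *Ccng2*, *Ccnb3* and *Mlana* from SSC3 had the opposite sign. *Hist1h1b*, a linker histone gene at a median of 13.1 CPM, differed by 1.17, 0.90 and 2.86 from SSC1, SSC3 and SSC4, in 18 of 21, 10 of 12 and 9 of 10 libraries. *Cpne8*, of the copine family, differed by -0.99, -1.08 and -1.90, and of these 12 genes it alone had 1 sign in every library, in the comparisons with SSC3 and SSC4.

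Differences of the ribosomal and mitochondrially encoded genes from SSC1 and SSC3 were smaller when only cells of like depth were compared. This limit also changed the libraries, to 12 of 21 against SSC1 and 9 of 12 against SSC3. All 7 late libraries of the SSC1 comparison were among those lost. The part of depth alone in the smaller differences was therefore not tested. The 76 cytosolic ribosomal protein genes had medians of -0.45 against SSC1, 0.27 against SSC3 and 0.10 against SSC4, with 0 called. In cells of 150000 to 400000 UMIs alone these were -0.12, 0.15 and 0.08. The mitochondrially encoded genes had -0.52, 0.24 and 0.06, and in the same cells -0.16, 0.14 and 0.08. *Dazl* moved with them, from -0.35 to -0.03 against SSC1. The G2/M genes did not, with 29 of 42 higher than in SSC1 (0.85% of all genes) at a median of 1.05 in these cells (12 libraries), 32 higher than in SSC4 (1.82%) at 1.16 (8 libraries) and 0 called against SSC3 at 0.11 (9 libraries). The nuclear genes of oxidative phosphorylation had medians of -0.19, 0.20 and 0.10, glycolysis -0.20, 0.02 and 0.03, cholesterol synthesis 0.22, -0.36 and -0.07, and the piRNA pathway -0.17, 0.08 and -0.18, all with 0 called. In cells of like depth the oxidative phosphorylation medians were -0.05, 0.10 and 0.10. The glycolysis medians against SSC3 and SSC4 turned to -0.02 and -0.08 in these cells. Of the cholesterol synthesis genes 2 of 21 were lower than in SSC3 in these cells (0.544% of all genes), at a median of -0.29.

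SSC2 was found throughout the culture but beside different clusters. The division into days 0 to 18 and days 20 to 27 was placed by this pattern, so the counts below describe the split and do not test it. In all 14 libraries of days 0 to 18 with at least 5 SSC2 cells, SSC1 was the most frequent of the other SSC clusters (637 SSC1, 53 SSC3 and 40 SSC4 cells in all). In 7 of the 9 such libraries of days 20 to 27, SSC3 or SSC4 was (83 SSC1, 283 SSC3 and 171 SSC4 cells). SSC2 made up 45 of the 94 SSC1-4 cells of day 0 (47.9%). The share at days 10, 12, 14, 16 and 18 was 38%, 9.68%, 29.9%, 14.7% and 39.6%, and at days 20, 23 and 27 it was 19.4%, 3.28% and 33.3%. Day 8 had a single SSC1-4 cell.

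Per library with at least 20 SSC1-4 cells, the share was 30.2% ± 14.5 (SD, n = 15, 5.43% to 54.2%) early and 15.3% ± 14.1 (SD, n = 15, 0% to 45%) late. The difference of -14.8 percentage points had p = 0.00892 (two-sided permutation test, 100000 resamples). Within batch B1, the only one with late libraries, the difference was -13.9 points (p = 0.0313 by the same test, 10 against 15 libraries). The split of days was chosen when earlier results of these data were known, by which SSC clusters lay beside SSC2. Cells of those clusters also enter the share, so these p-values do not allow for the choice of the split. The shares overlapped widely, and the late ones ran from 0% to 45% on day 27. On day 23, 1 library had 0 of 93 cells, which allows up to 3.23% by 3 counts of the total (exact binomial limit 3.89%), and 1 had 0 of 20 (15% and 16.8%). With the cells of each day added up, a test chosen after seeing the data, the difference was -11.3 points between 6 early and 3 late days (two-sided exact permutation p = 0.333). Picking by hand could set such shares and its part in them was not tested.

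**Figure D4:**
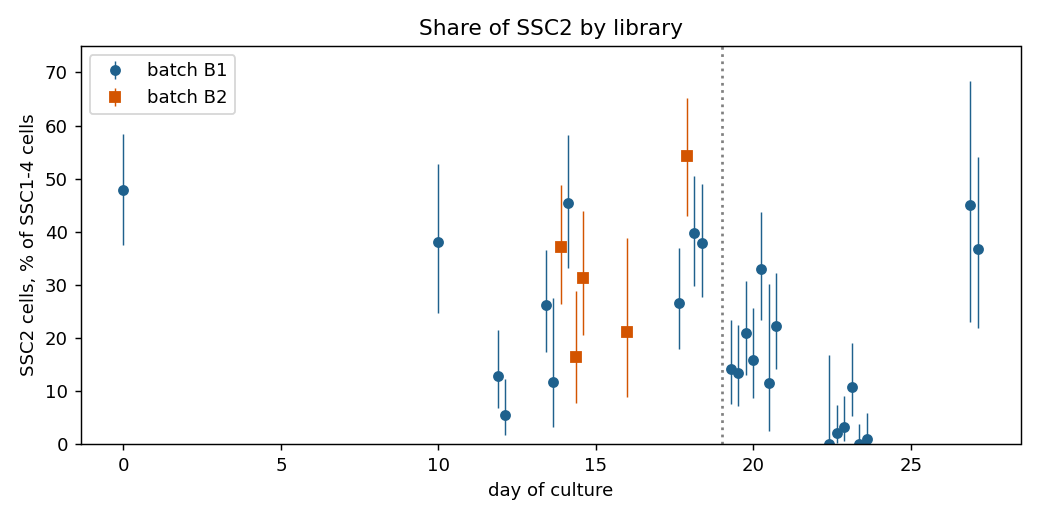
Share of SSC2 among SSC1-4 cells in each library with at least 20 such cells, by day of culture, with exact binomial 95% intervals as bars. Libraries of one day are set slightly apart and the dotted line divides early from late. Early libraries lie between 5.43% and 54.2% and late ones between 0% and 45%.

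Inside SSC2, late libraries were compared with early ones, 9 sums against 14, with edgeR's quasi-likelihood test over 12596 genes. The clustering did not use the day. No label says that libraries of the same day came from separate cultures, so p-values measure the spread between these libraries, which may be technical. The annotation's dates were 2 for the early and 3 for the late libraries with none in common, so day and date cannot be told apart. At an adjusted p below 0.05 and the same size of 0.721, 19 genes rose (0.151%) and 18 fell (0.143%), and 1582 had an unadjusted p below 0.05. With the libraries of a batch and day added up, so that days are the units, 0 of 14614 genes were called by edgeR (1095 at an unadjusted p below 0.05), and the calls below rest on libraries as replicates. SSC2 depth was alike, with medians of 282546 UMIs per cell early and 293274 late, and 0.877% and 0.846% mitochondrial UMIs.

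*Stra8*, the retinoic acid target needed to enter meiosis, fell. Its level was 91.4, 166 and 315 CPM (lowest, median and highest) early and 27.9, 69.5 and 140 CPM late, a log2 fold change of -1.36 (SE 0.21, edgeR adjusted p = 0.00119). The ranges overlapped. Within batch B1 it was -1.50. *Dnmt3a*, a de novo DNA methyltransferase, fell from a median of 149 to 90.6 CPM (-0.76, SE 0.156, adjusted p = 0.0171), and within B1 it was -0.64 without a call (adjusted p = 0.0791). These were 2 of 15 measured genes of differentiating spermatogonia, where 0.143% of all genes fell, and 9 of the 15 lay above 0 with a median of 0.03. *Kit*, the receptor that marks differentiating spermatogonia, had medians of 12.8 and 12.7 CPM (adjusted p = 0.86).

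*Bcl6b*, a transcriptional repressor induced by GDNF, rose most. Its level was 6.62, 17 and 38.0 CPM early and 16.4, 54.4 and 163 CPM late (1.57, SE 0.317, edgeR adjusted p = 0.0133), and the highest value came from the library of day 23. Both libraries of day 27, at 16.4 and 26.3 CPM, lay within the early range. Without the library of day 23 its fold change was 1.2 and it was not called. It was the 1 gene called among 23 of undifferentiated spermatogonia, of which 16 lay above 0 with a median of 0.43, where 0.151% of all genes rose. *Etv5* (1.0, adjusted p = 0.13), *Ret* (0.62, 0.15) and *Gfra1* (0.74, 0.43) did not pass.

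*Ifi27*, an interferon-inducible gene, was 1 of the 3 genes (0.0238%) whose early and late libraries did not overlap. It was 218, 255 and 312 CPM early and 97.3, 128 and 182 CPM late (-0.98, SE 0.0999). The other 2, named after their values were seen, are *Arhgef1*, an exchange factor of RhoA, at 22.7, 35.2 and 48.0 CPM early and 48.2, 61.3 and 142 CPM late (1.01, SE 0.187), and *Ergic1* of the secretory pathway, at medians of 71.3 and 105 CPM (0.70, short of the size for a call). *Rtp4*, another interferon-inducible gene, was rarer, with 705 UMIs in the early sums and 19 in the late ones (-4.01). It was too low in batch B1 for the test, and batch B2 had 5 early libraries and no late one, so for this gene time and batch cannot be told apart. The other genes named among those that fell are *Gm20939* (-3.16), *Zmynd11*, a reader of histone methylation (-2.39), the kinase gene *Cdk14* (-1.59), *Serping1*, the C1 inhibitor (-1.37), *1700086P04Rik* (-1.11), *Ccdc106* (-1.04), the zinc finger gene *Zfp329* (-1.04) and *Tnrc18* (-1.02). No library exceeded 25 CPM for *Zmynd11* or 14.2 CPM for *Gm20939*.

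The genes that rose after *Bcl6b* were *Tmem59l* (1.46), *Nid2*, a basement membrane protein (1.33), the death receptor gene *Tnfrsf25* (1.31), *Espn*, which bundles actin (1.27), *Klhl36* (1.24), *Fam234b* (1.2), *Jph4*, a junctophilin (1.19), *Tmc3* (1.15) and the sarcomere gene *Ttn* (1.08). *Espn* was 15.3, 39.5 and 83.9 CPM early and 69.7, 115 and 152 CPM late. *Tmem59l* was 13.2, 29.2 and 61.4 CPM early and 27, 84.7 and 172 CPM late, and its 2 libraries of day 27 lay among the early ones. Of the 37 genes called, 14 were called in batch B1 alone, 35 had the same sign in it and the other 2, *Rtp4* and *AW112010* (-4.56), were too low in it, so for *AW112010* too time and batch cannot be told apart.

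**Figure D5:**
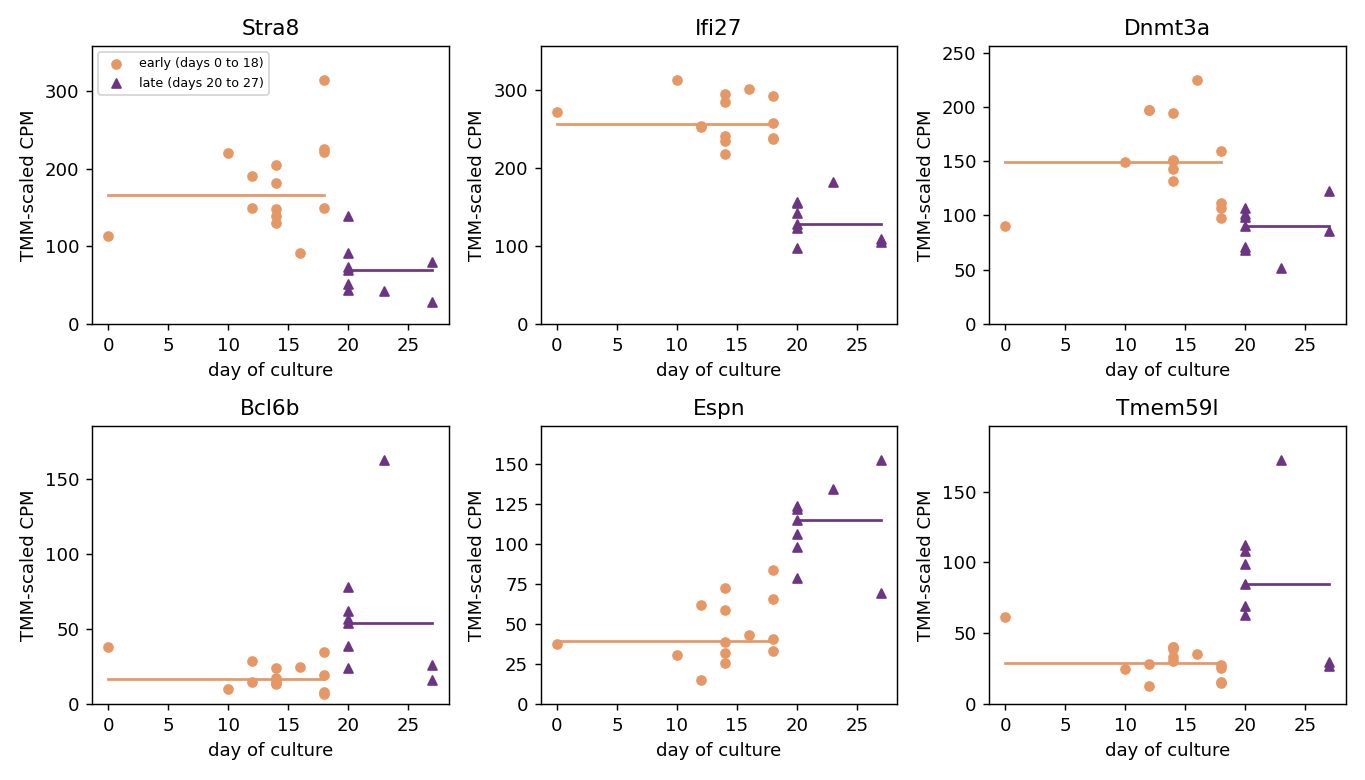
TMM-scaled CPM of 6 genes in the SSC2 sum of each library by day of culture, early libraries (days 0 to 18) as circles and late ones (days 20 to 27) as triangles, with lines at the medians. *Ifi27* falls from a median of 255 to 128 CPM without overlap, and the day 23 library stands at 163 CPM for *Bcl6b*.

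The cell cycle lists moved little with time. Of the G2/M genes 6 of 42 lay above 0 (median -0.15), with 1 called, *Dlgap5*, a spindle protein (-0.79, where 0.143% of all genes fell), and of the G1/S genes 31 of 36 (median 0.26) with 0 called. *Cdkn3* also fell (-0.85). All 18 glycolytic genes lay above 0 at a median of 0.25 with 0 called. Of 17 hypoxia targets 12 lay above 0 at a median of 0.05, with 1 called higher, where 0.151% of all genes rose. Among them *Ero1l*, which serves disulfide formation, rose by 0.78. The median over all genes was 0.00.

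Whether time changed SSC2 differently from SSC1, the cluster most often beside it, was tested as an interaction with the library as block in 21 libraries (7 late). Of 14221 genes, the change was higher in SSC2 for 8 (0.0563%) and lower for 7 (0.0492%). Of these 15 calls, 3 were also made in batch B1 alone (*Thap7*, *Prkrip1* and *Rpl17*), 5 with at least 10 cells per sum and 1 (*Rpl17*) without the block. The stress gene *Gadd45g* (2.03), the proapoptotic gene *Bik* (1.79) and *Chaf1a*, a subunit of chromatin assembly factor (1.68), were among the former, and the ribosomal protein gene *Rpl17* (-0.81) and *Zfp710* (-1.32) among the latter. SSC1 cells fell in depth over the same time, from a median of 172474 to 64185 UMIs, with mitochondrial UMIs at 1.15% and 1.86%, and the part of this in the differences was not tested.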

How the data were processed

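The deposited table holds unscaled UMI counts, 1 row a gene and 1 column a cell, beside a cell annotation by the authors with cluster, library, day, batch and the percent of mitochondrial UMIs. Per the labels and the study's methods, reads were aligned to mm10 with STAR 2.7.2b and assigned to genes with featureCounts 2.0.0. Cells were used as deposited. The annotated cells hold at least 2012 genes and at most 4.85% mitochondrial UMIs. The treatment of doublets is not given in the sources used here and no caller was run. The series has 145 samples, and its methylomes and scTrio-seq2 samples were not used here. SSC2 cells carry 95 of the plate's 96 barcodes, and 94 occur in more than 1 library.

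Counts were summed per library and cluster with at least 5 cells. The 23 SSC2 sums, of 5 to 45 cells, held 1279508 to 14168358 UMIs with a median of 5757918. The library is the replicate. Sums were scaled by TMM (edgeR 4.0.16, R 4.3.3). Differences between clusters used a pseudocount of 1 CPM and genes with a mean of at least 5 CPM, and have no test because the clusters came from the same data. Time was tested with edgeR's quasi-likelihood test after its filter on low counts, with Benjamini-Hochberg adjustment. Early ends at day 18 and late begins at day 20. Scripts were tested on simulated data. DESeq2 1.42.0, other scalings, filters, cell minimums, depth windows, blocks and sums were tried as alternatives. Python 3.11.15 with scipy 1.17.1 was used otherwise.

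Named genes were the label's markers, list members with the largest differences or levels, the 6 genes called with the largest differences per direction and cluster, the 10 called with time per direction and sharing their sign in B1, and the 6 furthest above or below all other clusters. The members, the day split, the lists and the motifs were chosen with earlier results of these data known. Gene models follow GENCODE vM21 on GRCm38. A result on 1 gene is not reported here.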

Additional observations from a re-analysis of the deposited data

Results flagged for a closer look

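In 38 sets of 9 or 10 libraries, 3 had a library far from the others. A rate of about 1 in 20 by chance holds for independent sets. These sets share libraries and most of their genes were picked by their differences, so that rate need not apply. Among the late SSC2 sums, the library 5 of day 23 had 163 CPM of *Bcl6b* against a median of 54.4 CPM. The library 7 of day 20 had 2.92 CPM of *Gm20939* against a median of 0.529 CPM, and the library 4 of day 27 had 115 CPM of *Klhl36* against 38.9 CPM.

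For 15 genes the change from early to late differed between SSC2 and SSC1 in the test of that difference (edgeR, adjusted p from 0.000341 to 0.0442). It was higher in SSC2 on the log2 scale for *Thap7* (0.78), *Tmem106c* (0.99), *Fam241b* (1.09, given as 2010107G23Rik in the data), *Chaf1a* (1.68), *Bik* (1.79), *Gadd45g* (2.03), *Gm29243* (2.84) and *Gm11630* (7.36). It was lower for *Zfp710* (-1.32), *Prkrip1* (-0.89), *Hnrnph3* (-0.82), *Rpl17* (-0.81), *Gtf2a1* (-0.80), *Ccdc6* (-0.76) and *Ptp4a2* (-0.73). *Gm11630* is rare, with a late SSC2 median of 2.00 CPM, and the size of its fold change depends on the prior count. Reads of *Rpl17* could be divided with copies of ribosomal protein genes, and in SSC2 alone its medians were 732 CPM early and 786 CPM late (edgeR adjusted p = 0.99). None of these 15 genes was called with time in SSC2 itself. In batch B1 alone the call held for 3 of them, *Thap7*, *Prkrip1* and *Rpl17*.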

How the results depend on the processing

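No called value of a named gene and no difference in share changed sign under any alternative run, whereas the balance of higher and lower genes against SSC4 did, as did uncalled differences of *Zbtb16*, *Ddx4*, *Ccng2*, *Ccnb3* and *Mlana*. The counts of genes that set SSC2 apart, 59 against SSC1, 63 against SSC3 and 296 against SSC4, rest on a sign in every library, so settings with fewer libraries gave more. In cells of 150000 to 400000 UMIs, 129 genes differed from SSC1, with 51 of the 59 among them, and 67 from SSC3, with 14 of the 63. With at least 10 cells per sum, 108 differed from SSC3 and 518 from SSC4 (225 higher and 293 lower), and in batch B1 alone 105 from SSC3. Scaled by total counts, the 296 genes were 135 higher and 161 lower, against 165 and 131 with TMM. Leaving out each library gave 60 to 72, 69 to 89 and 322 to 371 genes.

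The replicate block of the cluster comparisons was the library, in which both sums share day, date and plate. Without it 3, 0 and 33 genes separated all sums against SSC1, SSC3 and SSC4. For time, the library numbers in the titles do not pair days, since they name no animal or culture. With these numbers as a replicate block 18 genes were called, 10 of them among the 37.

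For time, DESeq2 called 176 genes (59 higher and 117 lower), and 211 were called without a filter on low counts (168 and 43), 58 with at least 10 cells and 22 in batch B1 alone (15 and 7). Sums per collection name, chosen after seeing the data, gave 20, and sums per batch and day 0 of 14614, with 1095 at an unadjusted p below 0.05. Leaving out each library gave 20 to 52, the fewest without day 23 library 5 (20), day 20 library 7 (22) and day 12 library 1 (23). The 15 genes of the difference from SSC1 became 29 with at least 10 cells, 3 in batch B1 and 5 without the replicate block. In cells of 150000 to 400000 UMIs this test could not be fitted, as no late library held 5 cells of both clusters, and single libraries were not left out of it. The difference in share ran from -16.9 to -13.1 points without each library, and was -14.1 of all cells, -11.4 with at least 5 SSC1-4 cells and -17.2 in pooled cells. With days as the units, chosen after seeing the data, it was -11.3 points and no longer passed. Of the values of named genes with time, 536 kept their call and 199 lost it. Sums of few cells limit genes below a few CPM: the difference of *Cldn11* from SSC4 was -4.96 with a pseudocount of 0.1 and -1.58 with 5.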
